A study of Mus musculus with 8 samples.

Results

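The genes described here are 4 annexins (*Anxa1*, *Anxa2*, *Anxa3* and *Anxa5*) and 6 genes of the S100 family (*S100a4*, *S100a6*, *S100a8*, *S100a9*, *S100a10* and *S100a11*), measured by RNA-seq in mouse liver. They were chosen by gene symbol, as annexins and S100 genes known from tissue injury, and with earlier results of these data known. They are 10 of the 55385 genes counted. Livers came from male C57BL/6J mice, 4 *Usp39*-HKO and 4 controls, all 5 weeks old and fasted for 16 h, with one library per mouse. *Usp39* encodes a protein of the spliceosome. *Usp39*-HKO mice carry a floxed exon 2 of *Usp39* on both alleles and Cre driven by the *Albumin* promoter. The study describes the deletion as hepatocyte-specific. Whether each of the other cell types of the liver keeps the gene cannot be read from whole liver. The labels call the controls wild type and the study's methods call them littermates, without naming their alleles. The comparison shows how the transcripts of these genes in whole liver differ when hepatocytes lack *Usp39*.

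Annexins bind acidic phospholipids such as phosphatidylserine in a calcium-dependent manner, and take part in membrane repair, in vesicle traffic and in the handling of dying cells. S100 proteins are small EF-hand calcium sensors, and several of them pair with an annexin: S100a10 binds Anxa2, and S100a11 binds Anxa1 and Anxa2. Several of these genes are known from the bile ducts, stellate cells and leukocytes of the liver, and S100a8 and S100a9 together form calprotectin, an abundant protein of neutrophils.

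The promoters of *S100a11* and *Anxa2*, the members with the largest log2 fold changes, are shown because both hold the AP-1 motif TGANTCA, the site of Fos and Jun factors. They run 5′ to 3′ on the gene's strand (RefSeq, GRCm38.p6) and stop before the first annotated exon. Capitals mark the motif. *S100a11* is shown at chr3:93520246-93520487 and *Anxa2* at chr9:69453433-69453619, both on the plus strand.
*S100a11*: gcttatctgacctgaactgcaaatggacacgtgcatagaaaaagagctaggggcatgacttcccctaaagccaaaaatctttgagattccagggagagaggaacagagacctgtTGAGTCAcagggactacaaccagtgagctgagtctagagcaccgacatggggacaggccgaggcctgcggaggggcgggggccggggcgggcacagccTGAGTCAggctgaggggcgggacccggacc
*Anxa2*: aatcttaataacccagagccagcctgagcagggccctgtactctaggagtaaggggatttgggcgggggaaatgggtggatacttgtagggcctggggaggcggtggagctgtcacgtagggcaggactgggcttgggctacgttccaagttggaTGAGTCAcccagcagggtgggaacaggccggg
RefSeq promoters were found for 8 of the 10 members, and the 250 bases before each start were searched on both strands. The AP-1 motif was in 2 of these 8 windows and in 6.75% of all 32851 windows. It lay 136 and 38 bases before the RefSeq start of *S100a11* and 95 bases before that of *Anxa2*. The printed stretches end earlier, at the first annotated exon, and hold 242 of the 250 bases for *S100a11* and 187 for *Anxa2*. The distances are therefore not counted from the printed ends. The letters TATAAA were in the windows of *S100a4*, *S100a8*, *Anxa1* and *Anxa2* (12.4% of all windows) and GGGCGG, a GC box, in those of *S100a9*, *S100a11* and *Anxa2* (32.7%). For *Anxa2*, the TATAAA at -17 and the GC boxes at -48 and -24 from the RefSeq start lay past the first annotated base. They are outside the printed stretch. TTGCNNAA, a C/EBP motif, was in those of *S100a9* and *Anxa1* (9.56%), and GGAATG, a TEAD motif, in that of *Anxa1* (12.6%). These motifs were chosen after the sequences were seen, and a match describes the letters only.

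In all, 6 of the 9 members that could be tested were higher in *Usp39*-HKO livers, namely the 4 annexins, *S100a6* and *S100a11*. None was lower, and *S100a8*, *S100a9* and *S100a10* did not pass the test. A gene was called at an adjusted p under 0.05 (edgeR quasi-likelihood test on the counts, Benjamini-Hochberg over all 14340 genes tested). Of all genes tested, 10.9% were called higher and 22.5% were called in either direction. The members' median log2 fold change was 0.89, beside a median of -0.0015 over all genes tested. Because the members were chosen with earlier results of these data known, these shares describe them and are no test against all genes. In FPKM (counts scaled to the length of the gene and the total of the mouse), every *Usp39*-HKO mouse lay above every control for 5 members, as it did for 23.9% of all genes tested. After division of each mouse's FPKM by its TMM scaling factor this held for 4 members and for 11.8% of all genes. The difference between these shares comes from the scaling, since FPKM as deposited had a median genotype difference of 0.17 on the log2(FPKM + 1) scale over all genes, and the fold changes given below are relative to the TMM scaling.

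**Figure D1:**
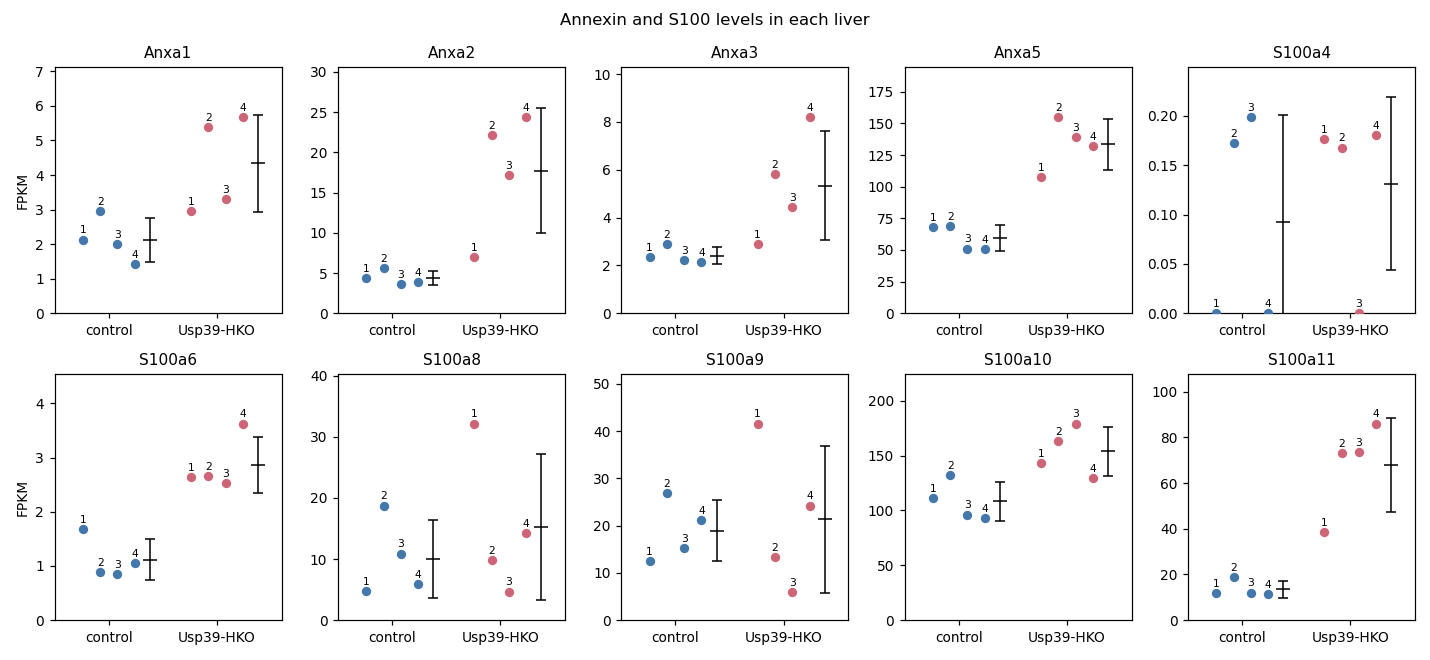
FPKM (y axis, linear, each panel with its own range) of the 10 members in the 4 control (blue) and 4 *Usp39*-HKO (red) livers, with the number of the mouse above each point and the mean ± SD as a black bar, cut at 0 for *S100a4*. The groups are apart for *Anxa1*, *Anxa2*, *Anxa5*, *S100a6* and *S100a11*, and mouse 1 is the lowest of the *Usp39*-HKO mice for *Anxa1*, *Anxa2*, *Anxa3*, *Anxa5* and *S100a11*.

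Each mouse had 8589636 to 10418450 counts in total, so that 3 counts, taken as the floor and covering counting error only, were worth 0.288 to 0.349 CPM. *Usp39* itself stood at 9.58 ± 0.706 FPKM in controls and 8.44 ± 0.286 FPKM after deletion (SD, n = 4 each; log2 fold change -0.42, SE 0.11, adjusted p = 0.0212, edgeR), a count over the whole gene that includes cells without Cre. This call was lost without control 4 or *Usp39*-HKO 4 (adjusted p up to 0.0615, edgeR), and also without TMM factors or with limma on FPKM (adjusted p up to 0.247, edgeR and limma). *Alb*, the defining gene of hepatocytes, was at 7170 to 9767 FPKM over the 8 livers. Control 4 also carried RNA of exocrine pancreas, with a summed level of 669.5 FPKM over 11 marker genes against 2.92 to 5.03 in the other 7 livers. *Usp39*-HKO 1 differed most from the other mice of its genotype (a chi-square of 25.1 to 36.4 for each degree of freedom, against 16.5 to 23.4 among the other 3).

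*Anxa2*, which gathers plasminogen and its activators at the cell surface, had the largest log2 fold change of the 4 annexin members. Its level in the controls was 4.32, 5.57, 3.59 and 3.86 FPKM, and in the *Usp39*-HKO mice 6.98, 22.2, 17.2 and 24.4 FPKM. The groups did not overlap, but *Usp39*-HKO 1 lay close to the controls and the other 3 lay well above it. The mean rose from 4.33 ± 0.877 to 17.7 ± 7.76 FPKM (SD, n = 4 each; exact permutation test, two-sided, p = 0.029, and 4 against 4 mice cannot give a smaller one). The log2 fold change was 1.77 (SE 0.29, adjusted p = 0.00244, edgeR), and it was 2.04 without *Usp39*-HKO 1. *Anxa2* lies on chr9:69453620-69491795 (GRCm38, plus strand), and 2.63% of its exon bases overlap a gene on the opposite strand.

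*Anxa5*, known for its binding to phosphatidylserine on dying cells, was the most abundant annexin of the 4. Levels were 67.8, 69.0, 51.1 and 50.5 FPKM in the controls and 107, 155, 140 and 132 FPKM in the *Usp39*-HKO mice. The groups did not overlap, and the lowest *Usp39*-HKO mouse was again mouse 1. The mean rose from 59.6 ± 10.2 to 133.6 ± 20.01 FPKM (SD, n = 4 each; exact permutation p = 0.029), with a log2 fold change of 0.93 (SE 0.15, adjusted p = 0.002, edgeR). The gene lies on chr3:36448923-36475894 (minus strand), apart from the S100 genes of the same chromosome.

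*Anxa1* and *Anxa3* were low in both genotypes and their calls were less stable. *Anxa1*, whose product acts on formyl peptide receptors and limits inflammation, was at 2.13, 2.95, 2 and 1.42 FPKM in the controls and at 2.97, 5.39, 3.31 and 5.69 FPKM in the *Usp39*-HKO mice. The highest control and the lowest *Usp39*-HKO mouse nearly touched, and after division by the TMM factor the groups overlapped. Means were 2.12 ± 0.630 and 4.34 ± 1.40 FPKM (SD, n = 4 each; exact permutation p = 0.029), and the log2 fold change was 0.78 (SE 0.25, adjusted p = 0.0447, edgeR). The call was lost in 5 of the 8 fits that left out a mouse, with adjusted p values (edgeR) of 0.0913, 0.106 and 0.121 without control 1, 3 or 4, and 0.109 and 0.119 without *Usp39*-HKO 2 or 4. *Anxa1* lies on chr19:20373428-20390944 (minus strand).

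*Anxa3*, a calcium-dependent phospholipid-binding protein like the others, was at 2.36, 2.91, 2.24 and 2.13 FPKM in the controls and at 2.88, 5.82, 4.43 and 8.22 FPKM in the *Usp39*-HKO mice. *Usp39*-HKO 1 fell within the control range here, so the groups overlapped. The means were 2.41 ± 0.344 and 5.34 ± 2.27 FPKM (SD, n = 4 each; exact permutation p = 0.057), and the log2 fold change was 0.89 (SE 0.24, adjusted p = 0.0222, edgeR). Without control 1, 3 or 4 or *Usp39*-HKO 4 the adjusted p (edgeR) was 0.0551, 0.0645, 0.0694 and 0.0639. *Anxa3* lies on chr5:96793339-96845966 (plus strand), and 3.07% of its exon bases overlap another gene on the same strand.

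The S100 members all lie on chromosome 3, in a pair of neighbouring groups. *S100a4* (90603771-90606045), *S100a6* (90612882-90624181) and *S100a8* (90668978-90670035), all on the plus strand, and *S100a9* (90692632-90695721), on the minus strand, form the first. *S100a11* (93520488-93526287) and *S100a10* (93555080-93564643), both on the plus strand, form the second. In the first group *S100a6* passed the test and *S100a8* and *S100a9* did not, and in the second *S100a11* passed it and *S100a10* did not, but position played no part in any test.

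*S100a11*, a partner of Anxa1 and Anxa2, had the largest log2 fold change of the members. It was at 11.7, 18.9, 12.1 and 11.3 FPKM in the controls and at 38.5, 73.3, 73.4 and 86.1 FPKM in the *Usp39*-HKO mice. The lowest *Usp39*-HKO mouse, mouse 1, lay above the highest control, mouse 2. The mean rose from 13.5 ± 3.65 to 67.8 ± 20.5 FPKM, a ratio of 5.02 (SD, n = 4 each; exact permutation p = 0.029). The log2 fold change was 2.07 (SE 0.23, adjusted p = 0.000492, edgeR), and 2.27 without *Usp39*-HKO 1. The transcript shares 297 bases with the genes Gm12854 and Gm7665, at an identity of 99.0% and 98.7%, so that reads may be split between them. These copies held 5 to 14 and 4 to 8 counts per control and 14 to 25 and 5 to 31 counts per *Usp39*-HKO mouse, against 53 to 417 for *S100a11* itself.

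*S100a10*, which joins Anxa2 in a heterotetramer, was the most abundant member in both genotypes. Levels were 111, 133, 96.2 and 93.4 FPKM in the controls and 143, 163, 179 and 129 FPKM in the *Usp39*-HKO mice. Only control 2 lay above the lowest *Usp39*-HKO mouse. The means were 108 ± 18.0 and 154 ± 22.1 FPKM (SD, n = 4 each; exact permutation p = 0.057). The log2 fold change was 0.28 with a 95% interval from -0.06 to 0.61 (adjusted p = 0.227, edgeR). The outcome depended on the scaling, since without TMM factors the log2 fold change was 0.51 and passed the test (adjusted p = 0.02, edgeR).

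The partners were therefore compared within each library, where the scaling between mice plays no part. These 4 ratios were chosen after the levels had been seen. *S100a10* over *Anxa2* was 25.8, 23.8, 26.8 and 24.2 in the controls and 20.6, 7.36, 10.4 and 5.29 in the *Usp39*-HKO mice, lower in all 4 than in any control. Its mean log2 value differed by -1.39 (exact permutation p = 0.029, adjusted over the 4 ratios by Benjamini-Hochberg 0.058), between -1.76 and -1.11 when each mouse was left out. *S100a11* over *Anxa1* was 5.50, 6.43, 6.04 and 7.95 in the controls and 12.9, 13.6, 22.2 and 15.1 in the *Usp39*-HKO mice, a log2 difference of 1.28 (exact permutation p = 0.029, adjusted 0.058). So transcripts of *Anxa2* came closer in number to those of *S100a10*, and those of *S100a11* moved further above those of *Anxa1*. Neither difference passed the adjustment over the 4 ratios, although both had the smallest p that 4 against 4 mice can give. With only these ratios at that p, the adjustment could not be passed, so the failure says nothing about them. *S100a11* over *Anxa2* differed by 0.40 on the log2 scale (SD 0.16 in controls and 0.33 in *Usp39*-HKO mice; exact permutation p = 0.086, adjusted 0.11).

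**Figure D2:**
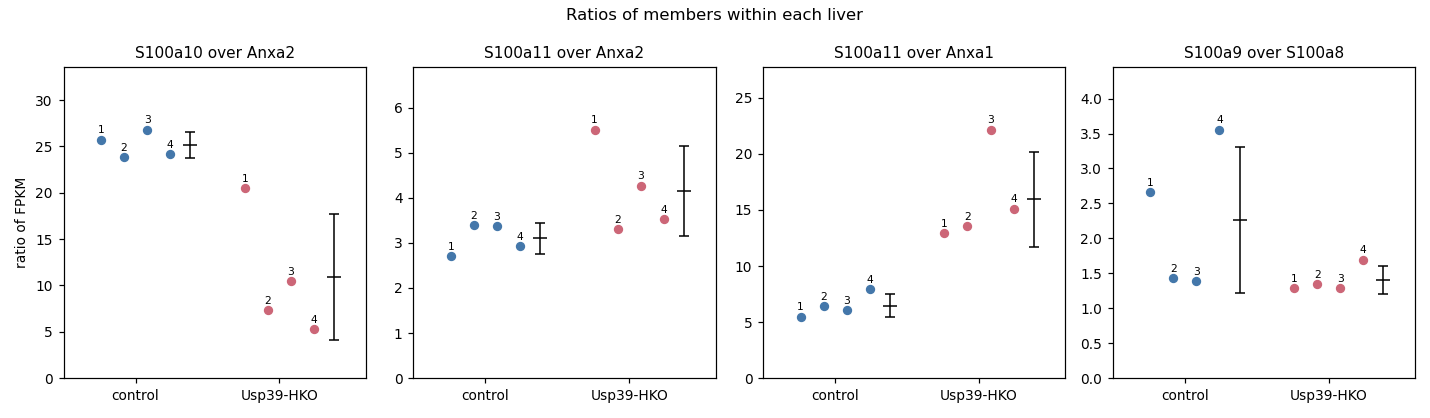
Ratios of FPKM (y axis, linear) between members within each liver, for controls (blue) and *Usp39*-HKO mice (red), numbered by mouse, with the mean ± SD as a black bar. The ratio of *S100a10* to *Anxa2* is between 23.8 and 26.8 in controls and between 5.29 and 20.6 in *Usp39*-HKO livers, and the ratio of *S100a9* to *S100a8* overlaps between the groups.

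*S100a6*, or calcyclin, was a low member, with 10 to 47 counts per mouse, and was higher in every *Usp39*-HKO mouse. It was at 1.67, 0.886, 0.852 and 1.05 FPKM in the controls and at 2.63, 2.65, 2.53 and 3.63 FPKM in the *Usp39*-HKO mice. Unlike the annexins, it was no lower in *Usp39*-HKO 1 than in *Usp39*-HKO 3. The mean rose from 1.12 ± 0.382 to 2.86 ± 0.513 FPKM (SD, n = 4 each; exact permutation p = 0.029), and the log2 fold change was 1.11 (SE 0.26, adjusted p = 0.0122, edgeR). *Cacybp*, which encodes the calcyclin-binding protein, did not pass the test (log2 fold change 0.16, adjusted p = 0.447, edgeR).

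*S100a4*, known as fibroblast-specific protein 1, was close to undetected. It held 0 or 1 count in each of the 8 livers, at or under 0.199 FPKM and below the floor of 3 counts, and was not tested. A difference was not detectable at these counts. Of its exon bases, 51.7% overlap Gm42674 on the same strand, a gene with 0 counts in every mouse. How reads matching both genes were treated is not given, so reads of the shared bases may be missing from both counts. The low counts of *S100a4* therefore do not show that its transcript is near absent.

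*S100a8* and *S100a9*, the calprotectin pair, varied more between mice than between genotypes. *S100a8* was at 4.71, 18.8, 10.9 and 5.95 FPKM in the controls and at 32.2, 9.89, 4.68 and 14.3 FPKM in the *Usp39*-HKO mice. *S100a9* was at 12.5, 26.9, 15.2 and 21.1 FPKM in the controls and at 41.6, 13.3, 6.02 and 24.3 FPKM in the *Usp39*-HKO mice. Both genes were highest in *Usp39*-HKO 1, second highest in control 2 and lowest in *Usp39*-HKO 3. The log2 fold change of *S100a8* was 0.38 (95% interval -0.82 to 1.59, adjusted p = 0.663, edgeR) and turned to -0.33 without *Usp39*-HKO 1. That of *S100a9* was -0.05 (95% interval -1.07 to 0.96, adjusted p = 0.95, edgeR). These intervals still include changes as large as those of several members that passed the test. The ratio of *S100a9* to *S100a8* was 1.29 to 1.70 in the *Usp39*-HKO mice and 1.39 to 3.56 in the controls (exact permutation p = 0.17).

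**Figure D3:**
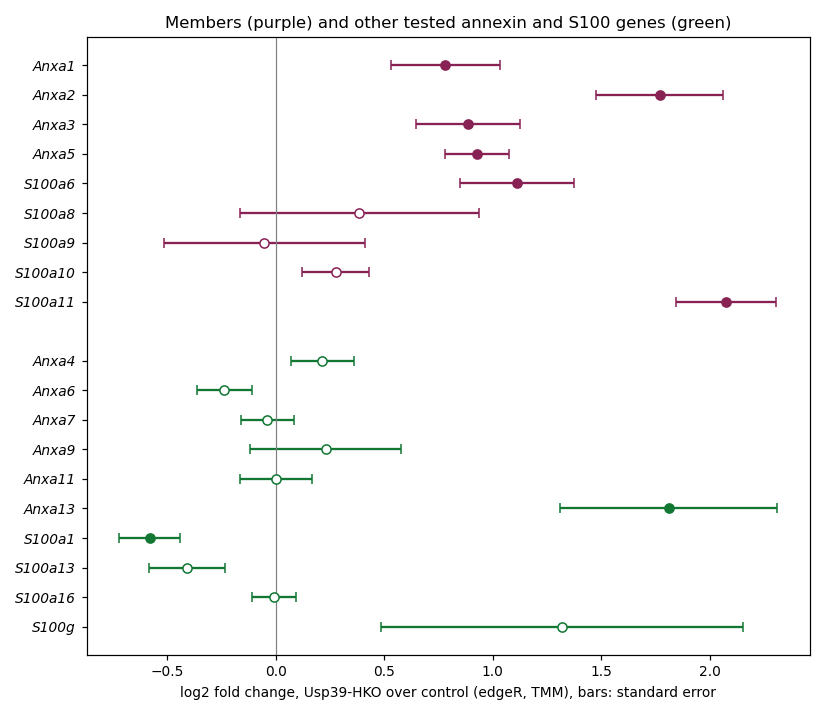
Log2 fold change, *Usp39*-HKO relative to control (x axis; edgeR with TMM factors) with its standard error for the 9 tested members (purple) and the other 10 tested annexin and S100 genes (green). Filled points passed an adjusted p of 0.05: 6 members, all higher, *Anxa13*, higher, and *S100a1*, lower.

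Ordered by mean FPKM, a level per length, the controls ran from *S100a10* through *Anxa5*, *S100a9*, *S100a11*, *S100a8*, *Anxa2*, *Anxa3*, *Anxa1* and *S100a6* to *S100a4*. The ranges of neighbours overlapped except between *S100a10* and *Anxa5*, *Anxa5* and *S100a9*, *Anxa2* and *Anxa3*, and *S100a6* and *S100a4*. In *Usp39*-HKO livers *S100a11* moved ahead of *S100a9* and *Anxa2* ahead of *S100a8*, with overlapping ranges in both cases. Here only *Anxa5* and *S100a11*, and *S100a6* and *S100a4*, were neighbours without overlap, and *S100a10* and *Anxa5* now overlapped. Summed over the 10 members, the level was 191 to 279 FPKM in the controls and 379 to 452 FPKM in the *Usp39*-HKO mice.

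The rest of the family was examined with the same fit. Of the 8 other annexins, 6 were tested and 1 passed, and of the 10 other S100 genes, 4 were tested and 1 passed, in the opposite direction. These 2 calls among 10 tested genes are near the share of all genes called in either direction, 22.5%. *Anxa13*, an annexin of epithelia, was at 0.819, 0.442, 0.438 and 0.601 FPKM in the controls and at 0.645, 2.27, 1.97 and 4.96 FPKM in the *Usp39*-HKO mice (log2 fold change 1.81, SE 0.50, adjusted p = 0.0238, edgeR). *Usp39*-HKO 1 lay within the control range, and the call was lost without control 2, 3 or 4 or *Usp39*-HKO 4 (adjusted p up to 0.0706, edgeR). *S100a1*, a calcium sensor best known from muscle and the most abundant of these genes, was at 102, 99.6, 118 and 121 FPKM in the controls and at 101, 89.0, 79.4 and 73.3 FPKM in the *Usp39*-HKO mice. It was the only S100 gene called lower (log2 fold change -0.58, SE 0.14, adjusted p = 0.0129, edgeR), a call lost with limma on FPKM at either pseudocount (adjusted p up to 0.0559, limma), and *Usp39*-HKO 1 was again the mouse within the control range. *S100a1* lies in the same group of genes on chromosome 3 as *S100a6*, at 90511034-90514392 on the minus strand.

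Log2 fold changes of the tested annexins that did not pass were 0.21 for *Anxa4*, -0.24 for *Anxa6*, -0.04 for *Anxa7*, 0.23 for *Anxa9* and 0.00 for *Anxa11* (adjusted p between 0.208 and 0.994, edgeR). *Anxa6*, at 49.0 ± 3.01 and 49.3 ± 10.2 FPKM (SD, n = 4 each), was the most abundant of them. Among S100 genes, *S100a13* (-0.41, adjusted p = 0.118, edgeR), *S100a16* (-0.01, adjusted p = 0.968, edgeR) and *S100g* (1.32, SE 0.83, adjusted p = 0.287, edgeR) did not pass. *Anxa10*, *S100a5*, *S100b* and *S100z* had 0 counts in all 8 livers, and *Anxa8*, *S100a3*, *S100a7a* and *S100a14* had at most 3.

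Of 23 genes for receptors and partners of annexins and S100 proteins and for the clearance of dying cells, 21 were tested, 8 rose and 1 fell, beside the 22.5% of all genes called in either direction. The median log2 fold change of the list was 0.42, and the list was chosen with earlier results of these data known. The 3 largest rises were those of *Mfge8*, *Plaur* and *Cd36*. *Mfge8*, which bridges phosphatidylserine to integrins on phagocytes, was at 4.27, 6.62, 5.13 and 4.25 FPKM in the controls and at 13.96, 23.1, 24.6 and 37.3 FPKM in the *Usp39*-HKO mice (log2 fold change 2.03, SE 0.23, adjusted p = 0.000557, edgeR). *Plaur*, the urokinase receptor, was at 0.267 to 0.583 FPKM in the controls and at 1.02 to 2.90 FPKM in the *Usp39*-HKO mice (1.58, SE 0.35, adjusted p = 0.00896, edgeR). *Cd36*, a scavenger receptor, was at 28.6 to 56.1 and 82.3 to 152.6 FPKM (1.36, SE 0.22, adjusted p = 0.00236, edgeR). None of these 3, picked as the largest rises, overlapped between the genotypes in FPKM. Every *Usp39*-HKO mouse also lay above every control for 23.9% of all genes tested.

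Smaller rises were found for *Axl*, a receptor for phosphatidylserine-bound ligand (log2 fold change 0.78), *Ano6*, a scramblase that exposes phosphatidylserine (0.77), *Cd44*, the hyaluronan receptor (0.74), *Tlr4*, a receptor for calprotectin (0.63), and *Gas6*, the ligand of Axl (0.53), with adjusted p values between 0.0025 and 0.0327 (edgeR). The calls of *Tlr4* and *Gas6* were lost without control 3 or 4 or *Usp39*-HKO 4, that of *Tlr4* also without control 2 or *Usp39*-HKO 2 and that of *Gas6* also without control 1 (adjusted p up to 0.0992 and 0.0722, edgeR). *Plg*, the plasminogen made by hepatocytes that Anxa2 and S100a10 bind, was the gene that fell, from 535 ± 23.2 to 316 ± 72.0 FPKM (SD, n = 4 each; log2 fold change -0.98, SE 0.18, adjusted p = 0.00401, edgeR). Thus *Anxa2* and *Plaur* rose while *Plg* fell. *Plat*, the tissue plasminogen activator, was not tested, because it missed the filter of 0.5 FPKM in 4 mice with *Usp39*-HKO 1 at 0.462 FPKM. It was at 0.0769 to 0.259 FPKM in the controls and 0.462 to 3.58 FPKM in the *Usp39*-HKO mice, without overlap. These levels came from 5 to 16 counts per control and 28 to 212 per *Usp39*-HKO mouse.

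The receptors of Anxa1 did not pass the test. *Fpr1* was at 5.22 to 6.33 FPKM in the controls and 4.83 to 8.24 FPKM in the *Usp39*-HKO mice (log2 fold change 0.09, adjusted p = 0.774, edgeR), and *Fpr2* at 1.56 to 2.44 and 1.51 to 2.52 FPKM (-0.35, adjusted p = 0.322, edgeR). *Ager*, the receptor for advanced glycation end products that binds several S100 proteins, had 4 to 21 counts per mouse and was not tested (0.188 to 0.404 FPKM in the controls and 0.245 to 1.03 FPKM in the *Usp39*-HKO mice).

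Levels of cell type markers were set beside the members, because whole liver was sequenced and fewer cells of a type cannot be told apart from less RNA per cell. The neutrophil list (15 genes, 9 tested, none higher or lower) summed to 14.5, 34.2, 18.3 and 21.1 FPKM in the controls and 37.3, 19.7, 9.22 and 29.1 FPKM in the *Usp39*-HKO mice. As for *S100a8* and *S100a9*, *Usp39*-HKO 1 and control 2 were highest and *Usp39*-HKO 3 was lowest. Among its defining markers, *Ly6g* and *Mpo* were at 0 to 0.437 and 0 to 0.766 FPKM over the 8 livers and *Ngp*, a granule protein, was at 0.943 to 13.3 FPKM. *Camp* was at 1.65 to 6.79 FPKM in the controls and 0.415 to 3.34 FPKM in the *Usp39*-HKO mice (log2 fold change -0.85, adjusted p = 0.326, edgeR). *Csf3r*, the receptor for G-CSF, was at 1.84 to 2.53 and 2.44 to 5.41 FPKM (0.59, adjusted p = 0.0644, edgeR). *Csf3r* was highest in *Usp39*-HKO 4, so the markers did not all follow the order of the sum. The part of neutrophils in the levels of *S100a8* and *S100a9* was not tested.

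Most tested macrophage, stellate and cholangiocyte markers were higher, like the members that rose. The sum of 14 macrophage genes was 349 to 470 FPKM in the controls and 632 to 986 FPKM in the *Usp39*-HKO mice. Of these genes 12 were tested and 9 were higher, beside 10.9% of all genes tested. *Clec4f*, which marks Kupffer cells, was among them (log2 fold change 0.35, adjusted p = 0.0336, edgeR), while *Adgre1* did not pass (0.36, adjusted p = 0.105, edgeR). The call of *Clec4f* was lost without control 1, 3 or 4 or *Usp39*-HKO 3 or 4, and without a filter (adjusted p up to 0.113, edgeR). Of 12 stellate cell and fibroblast genes 11 were tested and 9 were higher (sums of 72.3 to 84.8 and 120 to 260 FPKM), among them *Col1a1*, a chain of collagen type I (1.70, adjusted p = 0.00333, edgeR). Of 10 cholangiocyte genes 6 were tested and 4 were higher (sums of 11.9 to 13.2 and 15.3 to 39.5 FPKM), namely *Krt19* (1.76), *Epcam* (2.11), *Sox9* (1.10) and *Cldn4* (3.28), with adjusted p values between 0.00378 and 0.0372 (edgeR). The call of *Sox9* held without *Usp39*-HKO 1 but was lost without any of the other 7 mice and with limma (adjusted p up to 0.114, edgeR and limma), and the other 3 were called without each mouse. *Usp39*-HKO 1 had the lowest sum of its genotype in each of these 3 lists, as it had for *Anxa2*, *Anxa5* and *S100a11*. These marker lists, too, were chosen with earlier results of these data known. The part of these cell types in the rises of the members was not tested.

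In the other lists no gene was called higher. Over all 14340 genes tested, 1561 were called higher and 1664 lower, and the counts of lower genes below stand beside that share. No lymphocyte gene (8 genes, 6 tested; sums of 5.30 to 6.64 and 6.52 to 8.23 FPKM; *Cd3e* at 0.320 to 0.853 FPKM over the 8 livers) and no mesothelium gene (5 genes, 2 tested; sums of 1.81 to 2.69 and 1.03 to 3.43 FPKM; *Msln* -0.27, adjusted p = 0.64, edgeR) was called. Of 9 sinusoidal endothelium genes 2 were lower, *Stab2* (-0.37, adjusted p = 0.0481, edgeR) and *Lyve1* (-0.997, adjusted p = 0.016, edgeR), with sums of 152 to 172 and 169 to 186 FPKM. *Stab2* was called in 4 of 16 alternatives, and without a mouse only when that was *Usp39*-HKO 1 (adjusted p up to 0.468, edgeR), and *Lyve1* lost its call without control 3 (adjusted p = 0.0537, edgeR). Of 10 hepatocyte genes 4 were lower, namely *Apoa2*, *Cps1*, *Serpina1a* and *Cyp2e1* (log2 fold changes of -0.70 to -0.48), and *Alb* did not pass (-0.14, adjusted p = 0.626, edgeR). Of the 8 fits that left out a mouse, *Apoa2* was called in 1, *Cps1* in 2, *Cyp2e1* in 3 and *Serpina1a* in 7. Leaving out control 1, 3 or 4 or *Usp39*-HKO 2 or 3 ended the calls of the first 3 (adjusted p up to 0.144, edgeR). Leaving out control 2 also ended that of *Apoa2*, *Usp39*-HKO 4 those of *Apoa2* and *Cps1*, and control 3 that of *Serpina1a*. Calls were also lost under other settings. Over all 16 alternatives *Apoa2* was called in 5, *Cps1* in 6, *Cyp2e1* in 9 and *Serpina1a* in 12.

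**Figure D4:**
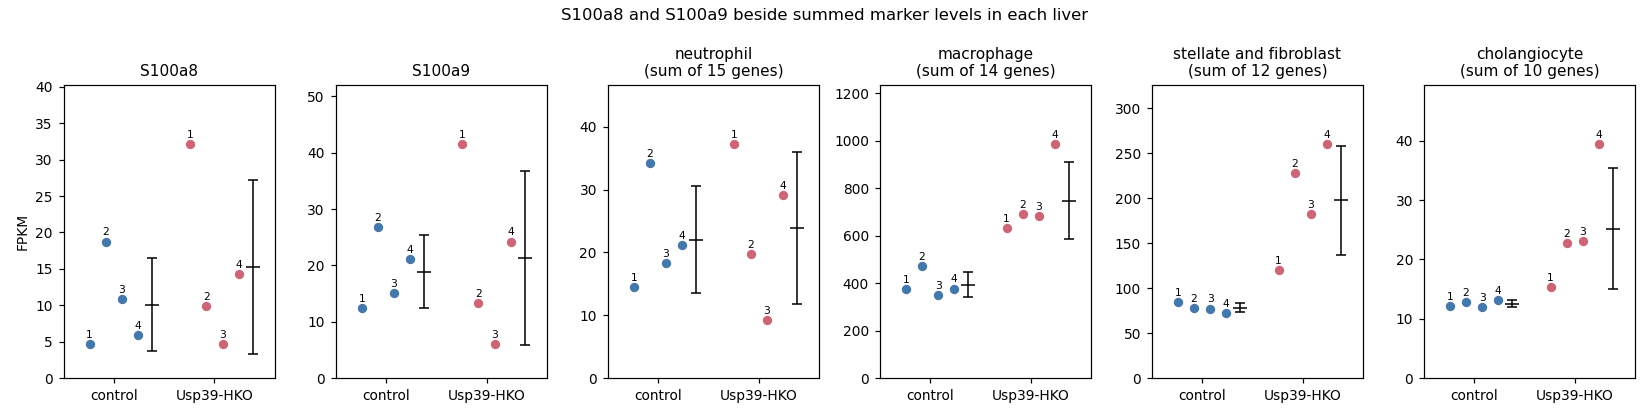
FPKM (y axis, linear, each panel with its own range) of *S100a8* and *S100a9* and summed FPKM of the neutrophil, macrophage, stellate and fibroblast, and cholangiocyte marker lists in each control (blue) and *Usp39*-HKO (red) liver, numbered by mouse, with the mean ± SD as a black bar. *Usp39*-HKO 1 is highest in the first 3 panels and lowest of its genotype in the last 3.

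For each member that passed the test, the genes with the most similar profile over the 8 mice were sought as those with the smallest root mean square difference in centred log2(FPKM + 1). These are a description over 8 mice that share libraries. *Anxa2* was closest to *Col3a1*, a collagen (0.18), and *Mmp2*, a gelatinase (0.18). *Anxa5* was closest to *Ly6a* (0.12) and *Col6a1*, a collagen (0.14), and *Anxa3* to *Fbn1*, the gene of fibrillin (0.08), and *Fgfr2*, a receptor for fibroblast growth factors (0.09). For *S100a11* the nearest genes were *Lgals1*, which encodes galectin-1 (0.15), and *Mfge8* (0.17). *Anxa1* was closest to *Rerg* (0.09) and *Gdpd1* (0.11), and *S100a6* to *Pde4d*, a cyclic AMP phosphodiesterase (0.12), and *Slc35f2* (0.12).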

How the data were processed

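Liver RNA of 4 control and 4 *Usp39*-HKO mice was sequenced with one library per mouse, and groups were taken from the labels. Mice are numbered within each genotype in the order of deposit, as names only. Reads were aligned by the authors to mm10 (HISAT2) and counted over genes (featureCounts). The annotation release, the strand setting and the treatment of reads matching several genes are not given in the sources used here. The authors deposited raw counts per gene and mouse, and FPKM computed from them. The columns of their own DESeq2 comparison were not used: the authors deposited in them a mean normalized signal, a log2 fold change, its error and test statistic as scores, and p-values.

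Members and gene lists were chosen with earlier results of these data known. All 10 members are named with their values, as are all tested genes of the other annexin and S100 lists, *Usp39*, *Fpr1*, *Fpr2*, *Ager*, *Tlr4*, the receptor and partner genes past the test (up to 8 with the largest changes), a set of defining markers, and the 2 nearest profiles of each member past the test. *Plat*, *Cacybp*, *Sox9*, *Cldn4*, *Lyve1*, *Apoa2*, *Cps1*, *Serpina1a* and *Cyp2e1* are named outside this rule, after their values were seen.

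Of 55699 rows, 55385 genes were distinct. Those at 0.5 FPKM or more in 4 or more mice were tested with edgeR 4.0.16 (quasi-likelihood, TMM factors of 0.911 to 0.94 for control and 1.01 to 1.19 for *Usp39*-HKO libraries, genotype as the only factor). The test was first run on simulated counts with a common dispersion for all genes and no built-in scaling difference between the genotypes. That run does not bear on the scaling of these data. P-values are two-sided and adjusted over all genes tested. FPKM levels and ratios were compared by exact permutation over all 70 ways to assign the mice. Totals of 8589636 to 10418450 counts per mouse limit the precision of the low members, and PCR reads without molecular identifiers are not independent molecules. Between mice of one genotype, the chi-square was at least 7.02 for each degree of freedom, so none was a repeat of another. Coordinates are from GENCODE vM21 (GRCm38, the same assembly as mm10), shared sequence from BLAST+ 2.17.0+ (at least 150 bases at 97% identity). Alternatives were DESeq2 1.42.0, median-ratio scaling, no TMM factors, 3 other filters, limma 3.58.1 on log2(FPKM + 1) and log2(FPKM + 0.1), TMM-divided FPKM, TPM and leaving out each mouse.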

Additional observations from a re-analysis of the deposited data

Results flagged for a closer look

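In 3 of the 20 groups of 4 mice, 10 members in each genotype, a single mouse lay far from the other 3. Chance alone marks about 1 in 20 such groups. *S100a11* was at 18.9 FPKM in control 2, above the 11.3 to 12.1 FPKM of the other controls and below every *Usp39*-HKO mouse. *S100a6* was at 3.63 FPKM in *Usp39*-HKO 4, above the 2.53 to 2.65 FPKM of the other *Usp39*-HKO mice, with 47 counts. *S100a4* was at 0 FPKM in *Usp39*-HKO 3, where the other *Usp39*-HKO mice held 1 count each.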

How the results depend on the processing

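Over 141 alternatives for the log2 fold changes of the 9 tested members, 123 kept the direction and the side of the threshold, among them every alternative for *Anxa2*, *Anxa5*, *S100a6* and *S100a11*. *Anxa1* lost its call in 5 and *Anxa3* in 4, all of them fits without a mouse, and *S100a10* gained one in 3, without TMM factors and with limma at either pseudocount (adjusted p = 0.02, 0.032 and 0.0322, edgeR and limma). The direction turned for *S100a8* without *Usp39*-HKO 1 (range -0.33 to 0.88 over the 8 mice left out). For *S100a9* it turned without TMM factors (0.17), with a mean FPKM of at least 5 (0.03), and without control 2 (0.16), *Usp39*-HKO 2 (0.12) or *Usp39*-HKO 3 (0.25), none of which passed the test (range -0.66 to 0.25 over the 8 mice left out). The 6 members called became 3 of 6 tested with a mean FPKM of at least 5, where fewer were tested, and 4 to 6 without a mouse. The 5 members without overlap became 4 after division by the TMM factor, 6 as TPM and 5 to 7 without a mouse. The 2 other annexin and S100 genes called became 1 with a mean FPKM of at least 5, where *Anxa13* was not tested, and 1 with limma at either pseudocount, where *S100a1* was lost, and 1 to 2 without a mouse. The 9 receptors and partners called became 16 without TMM factors, and 7 to 12 without a mouse. Over all genes, 3225 calls became 1595 of 6672 tested with a mean FPKM of at least 5, and 1931 to 3510 without a mouse (1931 without control 3, 2043 without control 4 and 2094 without *Usp39*-HKO 4). The higher share of all calls was 48.4% with TMM factors, 83.5% without them and 82.6% and 83.0% with limma, so the direction of small changes rests on the scaling. Other causes of these changes were not tested. No paired analysis was possible because the titles give every mouse a number of its own in 1 series over both genotypes, so that the groups share no number, and no label ties a control to a *Usp39*-HKO mouse. Low counts limit *S100a4*, at no more than 1 per mouse, and *S100a6*, at 10 to 47. For *S100a4*, depth cannot be told apart from the unknown treatment of reads shared with Gm42674.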
